A study of Homo sapiens with 72 samples.

Results

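The genes described here are the collagen chain genes, taken as the protein-coding genes whose symbol is COL, a number, A and a number, such as COL1A1. Of the 16923 protein-coding genes among the 23170 genes counted, 42 carried such a symbol. GENCODE release 29 holds 44 genes named this way, and the other two, COL22A1 and COL6A5, are not analysed here. Gene expression was measured by DRUG-seq, in which the polyadenylated RNA of each lysed well is barcoded and sequenced from its 3′ end. The cells, labelled normal human dermal fibroblasts of wildtype genotype, are primary connective-tissue cells and were seeded at 1250 cells per well of a 384-well plate. Control wells received the solvent DMSO, and treated wells received omaveloxolone, a synthetic triterpenoid that binds KEAP1 and so activates the transcription factor NRF2. All wells were harvested after 24 h. The 10 doses were 0.0005, 0.002, 0.005, 0.014, 0.04, 0.12, 0.37, 1.11, 3.33 and 10 µM, each in 4 wells of plate rows K and L, with 2 wells in the left side of the plate (columns 3 to 12) and 2 in the right side (columns 13 to 22). The 32 wells that carry the DMSO label fill column 2 and column 23, with 16 wells each, whereas the protocol in the labels speaks of 16 DMSO wells per plate. The labels call the wells biological replicates but name no separate donor, culture or plate for them, so p-values measure the spread between these wells.

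Collagens are secreted proteins of the extracellular matrix in which chains, each the product of its own gene, wind around each other into a rope-like helix before they leave the cell. Fibrillar collagens (types I, III and V) form the fibers that give dermis its tensile strength, and dermal fibroblasts are their main source in skin. Type VI makes beaded filaments around cells, type IV the sheet of basement membranes, and the fibril-associated types XII, XIV, XVI and XXI sit on the surface of fibers. Chains that share a molecule, such as COL1A1 with COL1A2 or COL6A1 with COL6A2 and COL6A3, are encoded by separate genes that need not lie near each other.

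The places of the 6 most counted genes on GRCh38 are given as in GENCODE release 29. COL1A1 (ENSG00000108821) is on chromosome 17 at 50183289-50201632 on the minus strand and COL1A2 (ENSG00000164692) on chromosome 7 at 94394561-94431232 on the plus strand. COL3A1 (ENSG00000168542) is on chromosome 2 at 188974320-189012746 on the plus strand, and COL6A3 (ENSG00000163359) on the same chromosome at 237324003-237414375 on the minus strand. COL6A1 (ENSG00000142156, 45981737-46005050) and COL6A2 (ENSG00000142173, 46098097-46132849) are neighbours on the plus strand of chromosome 21. COL4A1 and COL4A2 overlap head to head on opposite strands of chromosome 13, and no source used here says whether reads were assigned by strand.

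Promoter sequence is shown for 1 gene from each of 4 structural classes whose members fell at 0.37 µM, to set the letters before their starts side by side. RefSeq promoter windows (GRCh38.p14) matched 32 of the 42 genes in 44 windows; those of COL1A1, COL1A2, COL3A1, COL5A2 and COL6A1 were not among them. Capitals mark matches, on either strand, to 4 short motifs. They are CCAAT (the CCAAT box), TATAAA (the TATA box), GGGCGG (the GC box), and TGACNNNGC (core letters of the antioxidant response element that NRF2 binds); in the sequences shown no match shares a base with another. Each sequence ends where GENCODE release 29 starts the gene or at the RefSeq start, whichever comes first, and reads 5′ to 3′ along the gene.
COL5A1, fibrillar, chr9:134641553-134641773, plus strand: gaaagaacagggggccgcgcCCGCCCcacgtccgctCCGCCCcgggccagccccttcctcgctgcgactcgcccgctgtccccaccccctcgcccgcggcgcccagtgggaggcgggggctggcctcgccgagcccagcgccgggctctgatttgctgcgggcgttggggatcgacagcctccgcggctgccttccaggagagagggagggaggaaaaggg
COL6A2, beaded filament, chr21:46097862-46098096, plus strand: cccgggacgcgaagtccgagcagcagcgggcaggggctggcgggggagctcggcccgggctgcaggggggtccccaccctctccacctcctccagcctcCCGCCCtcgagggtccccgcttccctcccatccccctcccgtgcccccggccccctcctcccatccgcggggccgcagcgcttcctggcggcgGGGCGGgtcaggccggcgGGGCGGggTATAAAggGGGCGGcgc
COL12A1, fibril-associated, chr6:75206054-75206303, minus strand: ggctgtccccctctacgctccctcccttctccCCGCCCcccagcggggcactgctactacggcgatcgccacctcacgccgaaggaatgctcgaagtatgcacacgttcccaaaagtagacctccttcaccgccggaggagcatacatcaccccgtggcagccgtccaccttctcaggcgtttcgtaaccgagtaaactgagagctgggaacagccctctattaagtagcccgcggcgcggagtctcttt
COL13A1, transmembrane, chr10:69801656-69801866, plus strand: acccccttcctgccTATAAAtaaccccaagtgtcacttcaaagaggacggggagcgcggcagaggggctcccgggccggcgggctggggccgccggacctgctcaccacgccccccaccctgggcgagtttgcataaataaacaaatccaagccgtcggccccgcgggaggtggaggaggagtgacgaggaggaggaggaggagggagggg
COL6A2 shows both a TATAAA and several GC boxes, COL5A1 and COL12A1 match the GC box on the reverse strand only, and COL13A1 shows a TATAAA. Over the 250 bases before the RefSeq start, GGGCGG was present in 54.5% of the collagen windows and in 42.6% of all 35116 windows, and TATAAA in 18.2% and 10.7%. CCAAT was present in 27.3% and 32.0%. TGACNNNGC was present in 6.82% of the collagen windows, those of COL21A1, COL4A5 and COL4A6, and in 10.9% of all windows. A match is a description of the letters and no evidence of binding.

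The total count per DMSO well was 6656980 ± 932165 (SD, n = 32). It was 9310743 to 10386621 at 0.37 µM, 1432727 to 1709977 at 1.11 µM, 132317 to 208739 at 3.33 µM and 25635 to 39396 at 10 µM, so the 2 highest doses give little precision for all but the most counted genes. Mitochondrially encoded genes held 0.955% of the DMSO counts. They held 0.449% with 0.12 µM, 0.0428% with 0.37 µM and 0.0211% with 1.11 µM, and their part in the results that follow was not tested. All 10 fibroblast markers examined, among them VIM, THY1 and PDGFRB, were counted. Their summed level was 60382 to 76298 CPM (counts per 1000000 of the well total as scaled by edgeR) in DMSO. It was 32900 to 36707 CPM at 0.37 µM and 59295 to 70047 at 1.11 µM. All 10 were called lower at 0.37 µM than in DMSO (median log2 change -1.93) in the edgeR test used throughout, as were 13.6% of all genes. All 10 were higher at 1.11 than at 0.37 µM (2.48), as were 12.1% of all genes. At 1.11 µM against DMSO 3 were higher and 3 lower (9.77% and 13.2% of all genes). Between the DMSO columns 6 were higher and 2 lower in column 23 (3.3% and 2.81% of all genes). Summed markers of other cell types were low in comparison, with DMSO medians of 449 CPM for 5 keratinocyte markers, 136 for 5 immune, 60.8 for 5 smooth muscle, 36.5 for 5 melanocyte, 1.71 for 3 Schwann and 0.128 for 5 endothelial markers. At 0.37 µM these medians were 488, 94.2, 43.0, 6.78, 29.0 and 0.166 CPM, and the part of these markers, and of the fibroblast markers, in the results was not tested. KDR and TEK of the endothelial and TYRP1 of the melanocyte markers were at 0 in DMSO, and DCN, LUM and FAP of the fibroblast markers are also among the genes described further on.

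Of the 42 collagen genes, 28 had enough counts to be tested across doses, 14 of them at a mean of at least 10 CPM over all wells (COL27A1 through 1 well at 10 µM). The other 14 genes had 5 to 179 counts each in all 72 wells together and were not tested. Collagen output was concentrated in few genes: COL1A2, COL1A1, COL6A1, COL3A1, COL6A3 and COL6A2 took 96.0% ± 0.495 of all collagen counts in DMSO (SD, n = 32). Reads are counted at the 3′ end and were not divided by length, so the order of genes is not an order of molecules, and only changes are read below.

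In DMSO, collagen genes together made up 1.18% ± 0.443 of all counts (SD, n = 32), from 0.490% to 2.23%. This spread followed the plate column: the share was 0.824% ± 0.201 in column 2 and 1.53% ± 0.313 in column 23 (n = 16 each). The columns also differed in total count, with means of 6107560 and 7206410 per well, and in genes detected, 13597 and 14235. Mitochondrially encoded genes held 0.817% and 1.09% of their counts. The part of these differences was not tested. The fibrillar chains COL1A1, COL1A2, COL3A1, COL5A1 and COL5A2 and the type VI chains COL6A1, COL6A2 and COL6A3 were 1.58-fold to 1.90-fold higher in column 23. COL1A1, the major fibrillar chain of dermis, had 1385, 2422 and 4033 CPM as its lowest, median and highest value in column 2, and 2791, 4829 and 7097 in column 23. The columns overlapped, and the difference was 0.93 ± 0.12 on the log2 scale (SE; adjusted p = 1.23e-06, edgeR quasi-likelihood test). COL1A2, its partner in type I collagen, had 2722 ± 569 CPM in column 2 and 4752 ± 909 in column 23 and differed by 0.79 (adjusted p = 1.34e-07). COL3A1, the chain of type III collagen, had 852 ± 224 and 1577 ± 345 CPM and differed by 0.88 (adjusted p = 4.15e-07).

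Of the 21 collagen genes that could be tested between the columns, 13 were called higher in column 23 and 0 lower, where 3.3% of all 11258 genes were called higher and 2.81% lower. All 21 values lay above 0, with a median of 0.79, against -0.02 for all genes. The type VI chains COL6A1, COL6A2 and COL6A3 differed by 0.79, 0.79 and 0.92. COL5A1 and COL5A2, the chains of type V collagen that regulate fiber width, differed by 0.72 and 0.66. Of the fibril-associated chains COL14A1, COL16A1 and COL21A1 differed by 0.79, 1.14 and 1.30, and the remaining calls were COL15A1 (1.00) and COL8A2 (1.50). COL12A1 was not called, with 57.6 ± 20.9 CPM in column 2 and 67.9 ± 17.2 in column 23 (0.23, adjusted p = 0.493). COL13A1 (0.39), COL4A1 (0.44) and COL4A2 (0.10), the last pair being the common chains of basement membrane, were not called either. For 0 collagen genes were all column 23 wells above all column 2 wells, as for 0.0% of all genes.

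The difference was not the same in all rows. In 15 of 16 rows COL1A1 was higher in column 23, with a median log2 ratio of 1.10 over the 14 rows other than K and L. Row K, one of the pair that holds all treated wells, was the exception at -0.12, and row L was at 0.20, below each of those 14 rows. In row L COL6A1 (0.14) and COL6A3 (0.28) also lay below each of the 14 rows. COL1A2 (0.34) lay above 1 of them and COL3A1 (0.70) above 3. COL5A2 was higher in column 23 in 16 of 16 rows and COL12A1 in 8.

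**Figure D1:**
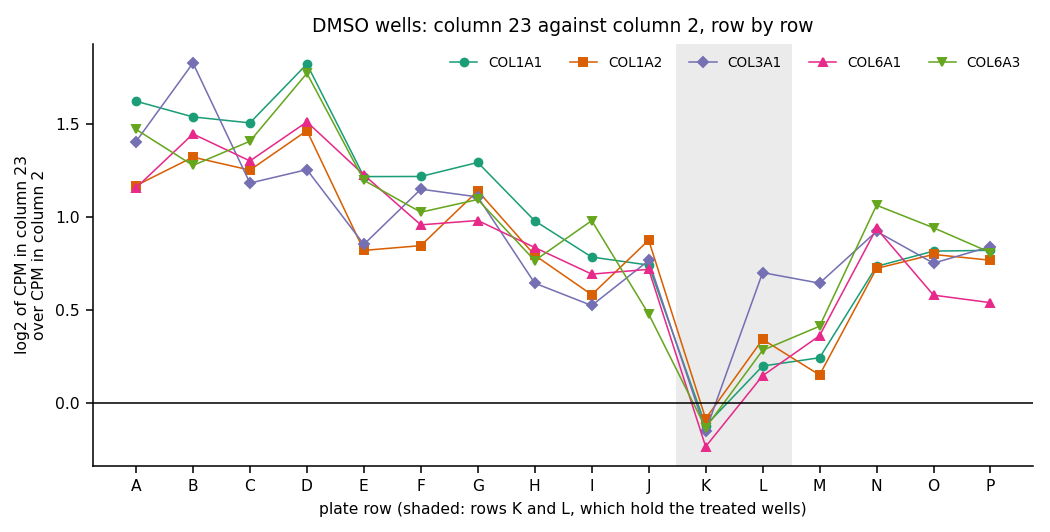
Log2 ratio of CPM in DMSO column 23 to CPM in DMSO column 2 in each of the 16 plate rows, for COL1A1, COL1A2, COL3A1, COL6A1 and COL6A3, with rows K and L shaded. Points above the line at 0 are higher in column 23; for COL1A1 the 14 unshaded rows lie above 0 and row K lies at -0.12.

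Treated wells allowed the same direction to be examined outside the DMSO columns. At doses up to 0.12 µM collagen genes made up 1.00% ± 0.248 of counts in the left side and 1.29% ± 0.232 in the right side (SD, n = 12 each). COL3A1 had 627, 934 and 1481 CPM as its lowest, median and highest value in the left side, and 990, 1385 and 1964 in the right side. The sides overlapped; the right side was higher by 0.64 ± 0.10 on the log2 scale (SE; adjusted p = 0.000335, edgeR quasi-likelihood test with dose as a term). COL5A2 was higher by 0.62 ± 0.16 (adjusted p = 0.0287). These were the 2 calls among 25 collagen genes tested, beside 1.07% of all genes called higher and 1.31% lower. The count depended on the fit: it was 1 with wells up to 0.04 µM alone, where COL5A2 was no longer called (0.49, adjusted p = 0.125), 5 with no filter on low counts and 4 with a plate row term. COL1A1 (0.34, adjusted p = 0.0683) and COL1A2 (0.29, adjusted p = 0.0539) were not called. Of the 25 values 18 lay above 0 and 7 below, with a median of 0.19, against 0.02 for all genes. COL15A1 (-0.33) and COL21A1 (-0.17), both called between the DMSO columns, were among the 7 and were not called here. Over the 7 doses up to 0.37 µM, the right-side mean of COL3A1 exceeded the left-side mean at 7 and that of COL1A1 at 6. The right-side mean was the higher one at 4 doses for COL14A1 and COL16A1, at 3 for COL15A1 and COL21A1 and at 2 for COL13A1.

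At 0.0005 to 0.12 µM the edgeR quasi-likelihood test called 0 of the 28 collagen genes against DMSO. Over all genes it called 0.00701%, 0.0561%, 0.0771%, 0.217%, 0.792% and 2.33% at these 6 doses, in either direction. With an unadjusted p under 0.05, 0, 2, 2, 0, 2 and 6 of the 28 genes passed at 0.0005, 0.002, 0.005, 0.014, 0.04 and 0.12 µM, where 4.61%, 5.4%, 4.19%, 5.66%, 7.8% and 12.6% of all genes did. The collagen share of counts was 1.22% to 1.24% at the 4 lowest doses, 1.12% ± 0.268 at 0.04 µM and 0.821% ± 0.282 at 0.12 µM (SD, n = 4), inside the range of the DMSO wells. COL12A1, a fibril-associated chain, came nearest to the threshold: its 4 wells at 0.12 µM had 45.0, 13.5, 38.8 and 22.1 CPM, and the DMSO wells had 27.4, 62.4 and 96.2 CPM as lowest, median and highest. Of the 4 wells 2 lay inside the DMSO range and 2 below it, and the difference was -1.07 ± 0.32 (adjusted p = 0.0523). The count at this dose changed with the DMSO wells taken as reference. Against column 23 alone, 7 genes were called lower at 0.12 µM (COL12A1, COL1A1, COL1A2, COL5A1, COL6A1, COL6A2 and COL6A3; 1.11% of all genes were called lower). Against column 2 alone, or against the 4 controls in rows K and L, 0 were called (0.519% and 0.12% of all genes were called lower).

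**Figure D2:**
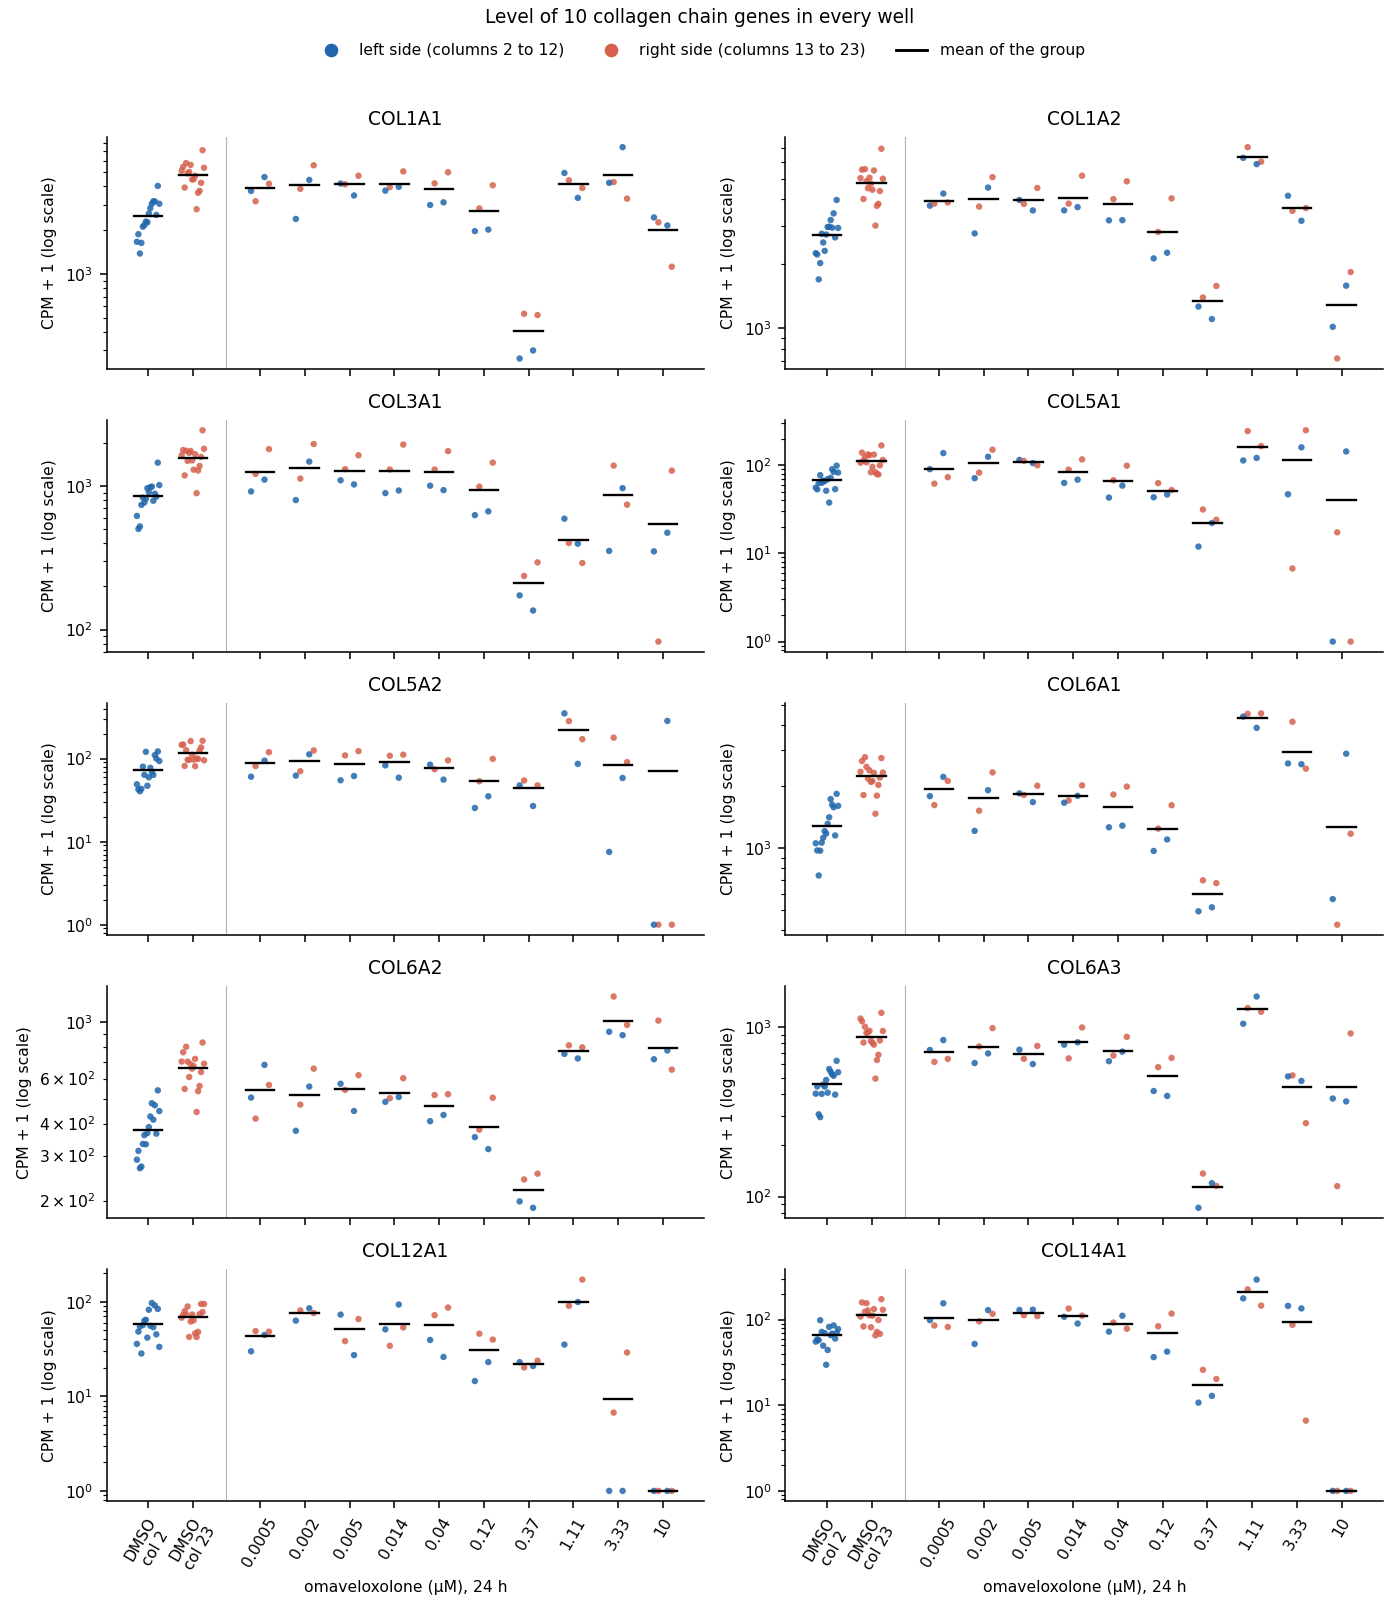
CPM plus 1 (log scale) of 10 collagen chain genes in every well, by DMSO column and omaveloxolone dose in µM, with blue points for the left side of the plate, red points for the right side and a bar at the mean of each group. The group means at doses up to 0.04 µM lie within the span of the DMSO wells, those at 0.37 µM are low and those at 1.11 µM are high again, except for COL3A1.

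At 0.37 µM collagen transcripts fell in 5 classes of chains, fibrillar, beaded filament (type VI), fibril-associated, transmembrane and multiplexin. The transmembrane and multiplexin classes had 1 and 2 genes tested, with 1 fall in each. No gene of the basement membrane, hexagonal network or anchoring fibril classes passed the test. None of those genes reached a mean of 10 CPM over all wells, so class and level cannot be told apart. The collagen share of counts was 0.320%, 0.246%, 0.342% and 0.234% in the 4 wells, each below the lowest DMSO well at 0.490%. Of the 28 genes tested, 14 fell and 0 rose, where 13.6% of all 14259 genes tested fell and 11.2% rose. The median collagen change was -1.53 on the log2 scale, against -0.14 for all genes. The 14 abundant genes all lay below 0, with a median of -1.88. In a bulk lysate, fewer cells making a transcript and less transcript per cell cannot be told apart. The 4 wells were deeper than any DMSO well, and their collagen counts averaged 28202 per well, against 81468 in DMSO. Size factors of DESeq2 in place of edgeR's TMM scaling moved the median of all genes at this dose by 0.25 on the log2 scale, and the number of collagen genes called then differed by less than 1.5 times.

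Among fibrillar chains 5 of 8 tested fell. COL1A1 had 533, 262, 523 and 298 CPM, where the DMSO wells had 1385, 3389 and 7097 as lowest, median and highest. No well overlapped, and the level was 8.99-fold lower (log2 change -3.17 ± 0.33, adjusted p = 2.4e-12, edgeR quasi-likelihood test). Its partner COL1A2 moved less, with 1387, 1257, 1570 and 1099 CPM against 1687, 3585 and 6909 in DMSO. These wells also lay below all DMSO wells, at a 2.81-fold lower level (-1.49 ± 0.23, adjusted p = 2e-07). COL3A1 had 236, 172, 293 and 135 CPM against 502, 1102 and 2449 in DMSO. It was 5.81-fold lower (-2.54 ± 0.35, adjusted p = 1.82e-08), again with no overlap. The minor fibrillar pair of type V differed in size: COL5A1 went from 88.5 ± 30.3 to 21.4 ± 8.03 CPM (-2.05, adjusted p = 2.73e-06) with no overlap, and COL5A2 from 94.4 ± 35.0 to 43.2 ± 12.0 CPM (-1.13, adjusted p = 0.0165) with overlap.

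All 3 abundant chains of type VI collagen fell. COL6A3, the long chain of the filament, had 136, 84.9, 114 and 119 CPM at 0.37 µM, against 293, 596 and 1208 in DMSO. Its level was 5.88-fold lower (-2.56 ± 0.29, adjusted p = 2.57e-11). COL6A1 went from 1762 ± 585 to 595 ± 106 CPM (-1.57 ± 0.26, adjusted p = 1.63e-06) and COL6A2 from 518 ± 168 to 220 ± 32.8 CPM (-1.24 ± 0.21, adjusted p = 3.26e-06). The 4 wells of each of these 3 genes lay below all 32 DMSO wells.

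Of the 5 fibril-associated chains tested 4 fell. COL14A1, found on fibers of dermis and tendon, went from 88.0 ± 35.4 to 16.4 ± 6.98 CPM (-2.42 ± 0.36, adjusted p = 8.63e-08), and COL12A1 from 62.7 ± 19.5 to 21.0 ± 1.70 CPM (-1.58 ± 0.33, adjusted p = 0.000118), both with no overlap. COL16A1 (-1.72) and COL21A1 (-2.03) also fell, with wells inside the DMSO range. COL13A1, a transmembrane collagen of cell contacts, had 0.343, 1.55, 9.48 and 14.4 CPM against 28.5 ± 10.8 in DMSO (-2.13 ± 0.51, adjusted p = 0.000785). COL15A1, a basement-membrane-zone collagen at low level, went from 13.4 ± 9.04 to 1.59 ± 1.98 CPM (-3.06 ± 0.78, adjusted p = 0.00166). None of the 4 type IV chains tested, which build basement membranes, passed the test. COL4A2 went from 6.12 ± 3.21 to 2.73 ± 0.999 CPM (-1.16, adjusted p = 0.121). COL4A1 had 3.26 ± 3.23 CPM in DMSO and 3.89 ± 2.81 at 0.37 µM (0.25), with a 95% interval from -1.28 to 1.78.

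In 9 of the 28 genes all 4 wells at 0.37 µM lay below all 32 DMSO wells, which 5.18% of all tested genes did. The 9 were COL1A1, COL1A2, COL3A1, COL5A1, COL6A1, COL6A2, COL6A3, COL12A1 and COL14A1. The change from the next lower dose was itself large: from 0.12 to 0.37 µM 12 genes fell and 0 rose (5.6% of all genes fell and 2.52% rose), among them COL1A1 (-2.75), COL6A3 (-2.17) and COL3A1 (-2.16). This count was 6 with DESeq2 size factors, and 6, 6 and 7 without replicate 2, 3 and 4. The size factors moved the median of all genes between these doses by 0.30 on the log2 scale. Shares of all genes under these settings are not given here. COL12A1 (-0.51) and COL5A2 (-0.28) were the called genes at 0.37 µM that did not pass between these 2 doses. From 0.04 to 0.12 µM 0 genes passed in either direction (0.00701% of all genes in each).

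**Figure D3:**
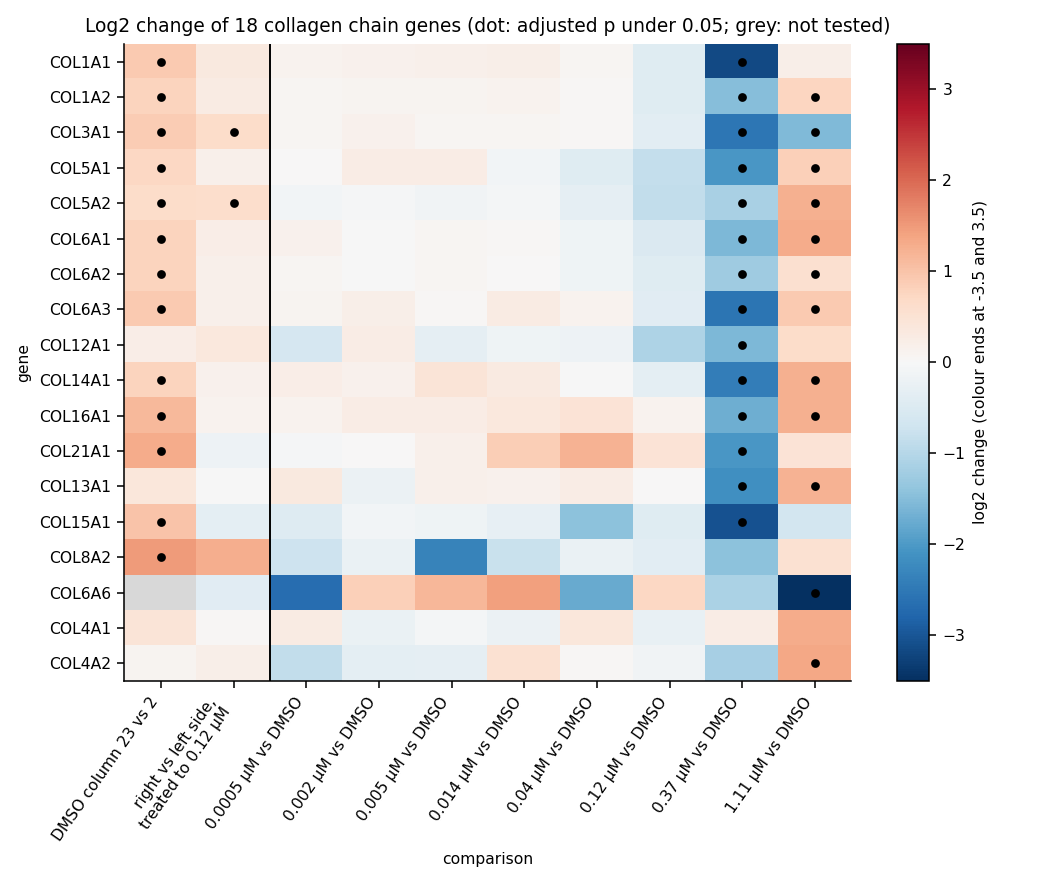
Log2 change of 18 collagen chain genes between DMSO columns 23 and 2, between right and left side of the treated wells up to 0.12 µM, and between each dose up to 1.11 µM and DMSO, with a dot where the adjusted p is under 0.05 and grey where a gene was not tested. Red is higher and blue is lower; the column at 0.37 µM is blue for 14 called genes and the DMSO column comparison is red for every gene it tested.

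Set beside the DMSO column difference, the change at 0.37 µM was the larger one in most genes. Of the 21 genes in both fits, 4 had a larger absolute log2 change at 0.12 µM than between DMSO columns, 18 at 0.37 µM and 13 at 1.11 µM. All 14 genes called at 0.37 µM were among the 18. At 1.11 µM 11 of the 21 were called, and COL1A2 and COL6A2 were the called genes whose change did not exceed the column difference. The fall was also measured within each side, comparing left wells with column 2 and right wells with column 23. In the left side 11 genes fell (8.95% of all genes) and in the right side 13 (8.37%). COL1A1 changed by -3.15 ± 0.31 in the left side and by -3.18 ± 0.31 in the right side. COL6A3 changed by -2.17 and -2.81. A test of the difference between the sides called 0 collagen genes at 0.37 µM (0.00701% of all genes were called in each direction). With column 2 alone as reference 11 genes were called lower (10.8% of all genes), and with column 23 alone 15 (12.4%). The 4 controls in rows K and L gave 10 lower (5.65%) and 1 higher (3.58%), COL4A1. That gene had 8 counts in these 4 controls together.

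Ratios between chains that share a molecule are given as a description. The COL1A1 to COL1A2 count ratio was 0.953 ± 0.0960 in DMSO (0.744 to 1.12), 0.961 ± 0.0539 at 0.12 µM and 0.299 ± 0.0761 at 0.37 µM (0.209 to 0.384; SD over wells). The 4 wells at 0.37 µM lay below all DMSO wells, and the DMSO columns had means of 0.904 (column 2) and 1.00 (column 23). The COL6A3 to COL6A1 ratio was 0.376 ± 0.0449 in DMSO and 0.192 ± 0.0283 at 0.37 µM, without overlap. The COL6A1 to COL6A2 ratio, between neighbouring genes, was 3.39 ± 0.223 in DMSO, with 3.39 in column 2 and 3.40 in column 23, and 2.70 ± 0.169 at 0.37 µM, where the ranges overlapped (2.76 to 3.94 and 2.50 to 2.90). The COL5A1 to COL5A2 ratio was 1.00 ± 0.327 in DMSO and 0.528 ± 0.239 at 0.37 µM, with overlap. Collagen counts were thus made up differently: COL1A1 was 29.8% of them in DMSO and 13.1% at 0.37 µM, and COL1A2 31.4% and 44.3%.

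**Figure D4:**
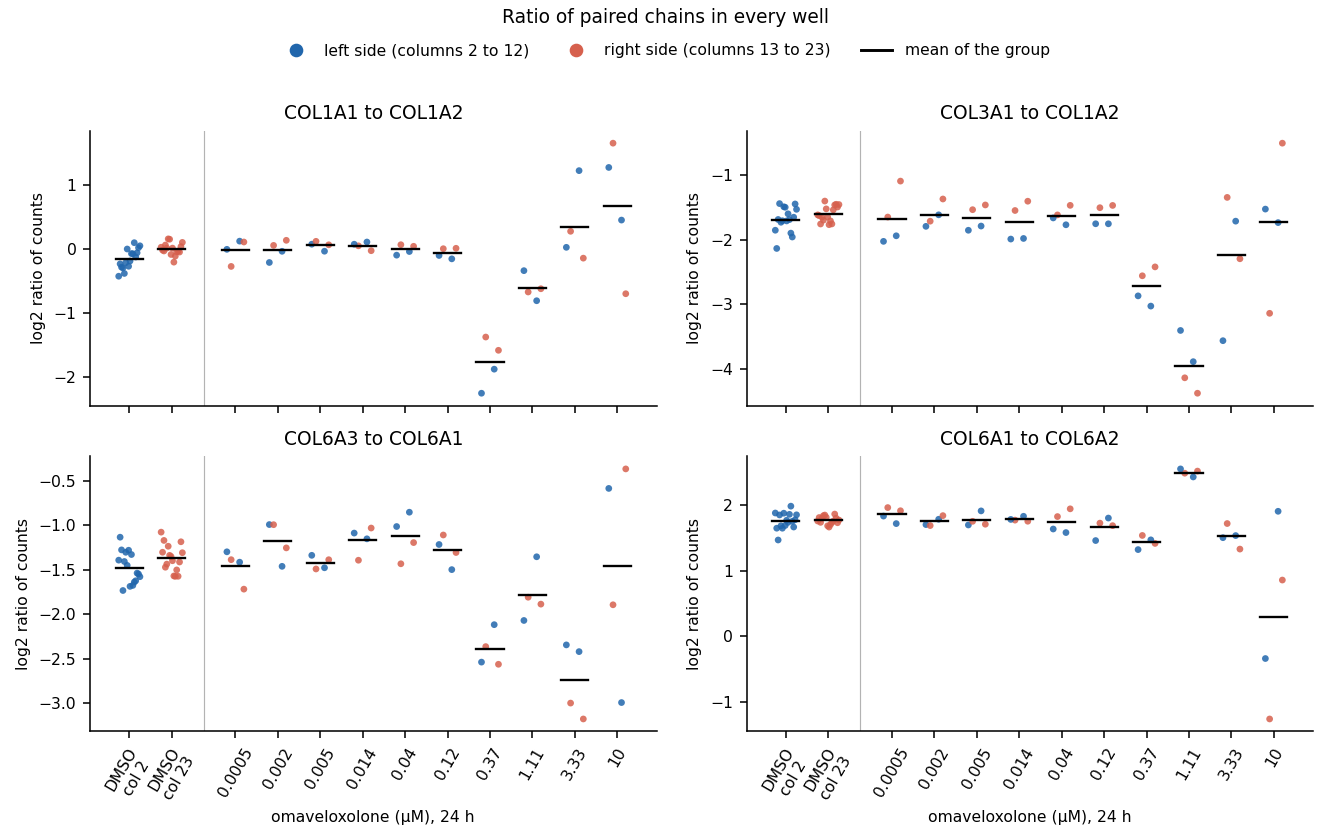
Log2 ratio of counts of 4 pairs of collagen chain genes in every well, by DMSO column and omaveloxolone dose in µM, with blue points for the left side, red points for the right side and a bar at the group mean. COL1A1 to COL1A2 is lowest at 0.37 µM, and COL3A1 to COL1A2 is lowest at 1.11 µM.

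At 1.11 µM 10 collagen genes were called higher than in DMSO, relative to a much smaller scaled total. Collagen genes made up 1.64%, 1.61%, 1.47% and 1.42% of counts in the 4 wells, within the DMSO range, while collagen counts averaged 23968 per well, below the 28202 at 0.37 µM. Of the 28 genes tested 10 rose and 2 fell, where 9.77% of all genes rose and 13.2% fell. Against 0.37 µM 16 rose and 0 fell (12.1% of all genes rose and 13.4% fell).

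COL6A1 had 4510, 4370, 4529 and 3851 CPM, all above the highest DMSO well at 2772 (1.29 ± 0.20, adjusted p = 9.08e-07). COL6A3 went from 667 ± 255 to 1266 ± 192 CPM (0.92, adjusted p = 0.000783) and COL6A2 from 518 ± 168 to 768 ± 41.5 CPM (0.57, adjusted p = 0.0178), both with overlap. The COL6A1 to COL6A2 ratio was 5.62 ± 0.202, above every DMSO well. Among fibrillar chains COL1A2 rose from 3737 ± 1273 to 6287 ± 522 CPM (0.75, adjusted p = 0.00172), COL5A1 rose by 0.85 and COL5A2 by 1.23. The changes of COL1A2 (0.75) and COL6A2 (0.57) were smaller than their DMSO column differences (both 0.79), and with column 23 alone as reference their adjusted p were 0.0533 and 0.292. COL1A1 had 4407, 4951, 3903 and 3337 CPM, inside the DMSO range (0.19, 95% interval -0.30 to 0.68). COL14A1 (1.25), COL16A1 (1.23), COL13A1 (1.21) and COL4A2 (1.35) made up the other rises. COL13A1 and COL6A1 were the genes with all 4 wells above all DMSO wells, as were 2.26% of all genes.

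COL3A1 went the other way. It had 400, 592, 290 and 396 CPM at 1.11 µM, against 502, 1102 and 2449 in DMSO, and was 2.89-fold lower (-1.53 ± 0.33, adjusted p = 0.000251), with 1 well inside the DMSO range. The COL3A1 to COL1A2 ratio, computed after the values were seen, was 0.322 ± 0.0357 in DMSO, 0.154 ± 0.0294 at 0.37 µM and 0.0669 ± 0.0201 at 1.11 µM. Both doses lay below all DMSO wells on this ratio, whose lowest value in DMSO was 0.227. The only other gene that fell was COL6A6, with 0 counts in the 4 wells, which is at least 3.73-fold lower than the pooled DMSO level when 3 counts over the group are taken as the limit.

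Counts at 1.11 µM also changed with the DMSO reference. With column 2 alone as reference 10 genes were called higher and 1 lower (8.57% and 11.2% of all genes). With column 23 alone 4 were called higher and 2 lower (7.16% and 11.1%), and with rows K and L 7 higher and 1 lower (2.51% and 4.85%). Among these 7 was COL4A1, with 8 counts in the 4 controls of rows K and L together. Within sides, 8 genes were called higher and 0 lower on the left (7.6% and 10.4% of all genes), and 2 higher and 1 lower on the right (7.2% and 11.6%). The test of the difference between sides called 2 genes (3.09% of all genes in that direction), 1 with DESeq2 size factors and 0 with no filter on low counts. COL3A1 changed by -0.79 on the left and -2.19 on the right (difference -1.40, adjusted p = 0.0385), and COL16A1 by 2.27 and 0.30 (difference -1.98, adjusted p = 0.0487).

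**Figure D5:**
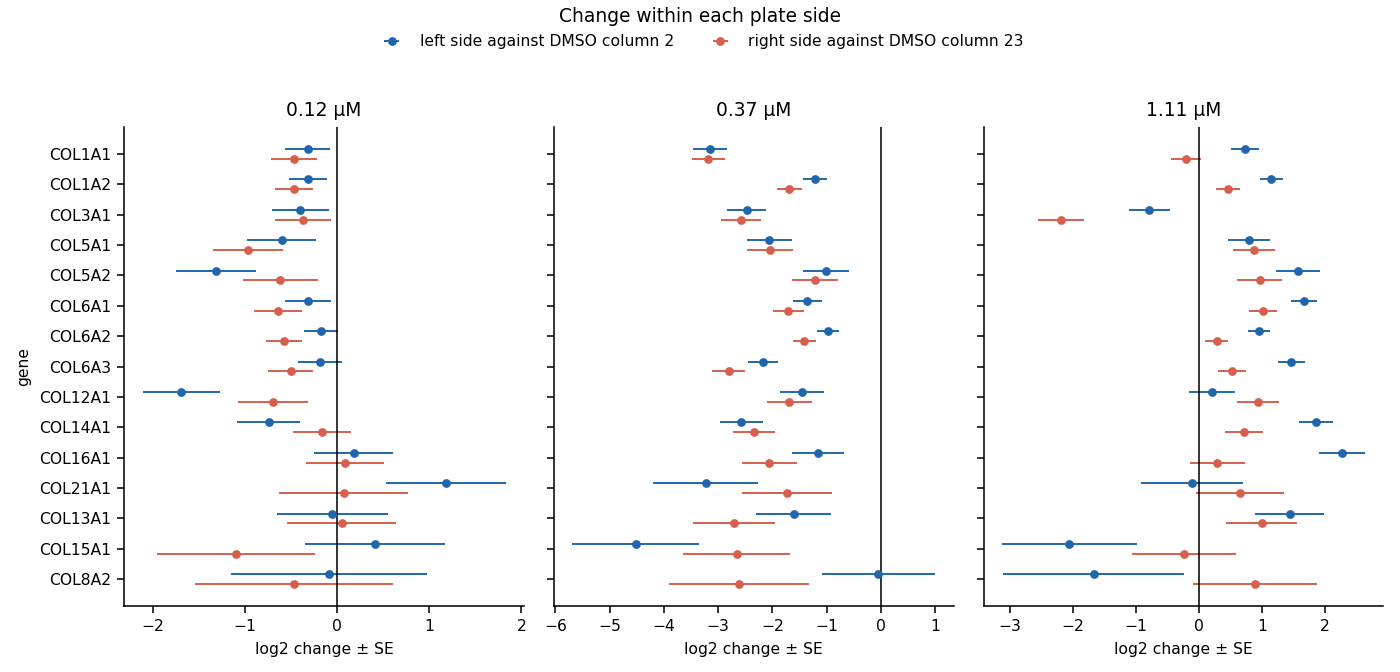
Log2 change with its SE for 15 collagen chain genes at 0.12, 0.37 and 1.11 µM, in blue for left-side wells against DMSO column 2 and in red for right-side wells against DMSO column 23. At 0.37 µM COL1A1 lies at -3.15 and -3.18, and at 1.11 µM COL3A1 lies at -0.79 and -2.19.

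At the 2 highest doses few collagen reads were left, 2552 per well at 3.33 µM and 416 at 10 µM on average. Collagen genes still made up 1.50% ± 0.184 and 1.38% ± 0.415 of all counts (SD, n = 4), inside the range of the DMSO wells. At 3.33 µM 3 genes were called higher and 3 lower, where 7.35% of all genes rose and 32.9% fell. With column 2 alone as reference 8 were called higher and 3 lower (median log2 change 0.11, against -2.06 for all genes). With column 23 alone 1 was called higher and 6 lower (median -0.86, against -2.16 for all genes). The shares of all genes called with these single-column references are not given here, so these counts cannot be set against them. COL6A2 had 1256, 914, 972 and 886 CPM, above all DMSO wells, and COL6A1 rose by 0.73 (adjusted p = 0.101 with column 23 alone as reference, edgeR). The call of COL18A1 rested on 1 well at 95.8 CPM, the other wells being at 0. COL15A1 and COL4A2 were at 0 counts, at least 3.31-fold and 1.46-fold lower than in DMSO, and COL12A1 fell by 2.89 on the log2 scale. At 10 µM 2 genes were called higher and 5 lower (3.35% and 31.8% of all genes); the 7 calls became 4 with DESeq2 size factors and 4 without replicate 1. COL1A1 fell by 0.86, a value that DESeq2 size factors turned to 0.01. With these factors 2 other called genes kept their direction and lost the call. COL1A2 and COL3A1 fell by 1.55 and 1.18, COL12A1 and COL14A1 were at 0 counts (at least 5.46-fold and 7.85-fold lower), COL6A2 rose by 0.60, and COL27A1 had counts in 1 well only.

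Genes that make, export, assemble and remove collagen were examined in 7 lists of 87 genes, 81 of them tested. The lowest dose with a call in them was 0.04 µM, where 2 fell (0.189% of all genes fell): LUM, a small proteoglycan that binds fibers (-2.59), and TIMP3, an inhibitor of matrix proteases (-1.22). At 0.12 µM 6 fell (1.02% of all genes): LUM (-1.58), SPARC (-1.24) and THBS2 (-1.17) of the fiber partners, the prolyl isomerase FKBP7 (-1.27), TIMP3 (-1.67) and the TGF-beta repressor SKIL (-1.68). Against rows K and L alone, 0 of them were called at either dose. At 0.37 µM 7 of the 81 genes rose and 30 fell, where 11.2% of all genes rose and 13.6% fell. Against rows K and L alone 5 rose and 16 fell, where 3.58% of all genes rose and 5.65% fell. The median log2 change at this dose was -0.47 in the folding list, 0.01 in export, -0.96 in processing and crosslinking and -1.58 in the fiber partners. It was -0.77 in the receptors, -1.01 in degradation and -0.69 in TGF-beta signalling, beside -0.14 over all genes tested.

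Among the 20 folding and hydroxylation genes at 0.37 µM, 2 rose and 6 fell, beside the 11.2% and 13.6% of all genes, so the share that rose was near that of all genes. PLOD2, the lysyl hydroxylase of telopeptides, went from 6.61 ± 5.14 to 85.4 ± 35.2 CPM (3.68, adjusted p = 2.65e-07), and TMEM38B, an endoplasmic reticulum cation channel, rose by 1.70. FKBP7 (-2.36) and FKBP14 (-1.76), prolyl isomerases of the endoplasmic reticulum, were among those that fell. Of 9 export genes 1 rose and 1 fell, also near the shares of all genes: TRAPPC3 rose (0.62) and CREB3L1, a transcription factor of secretory cells known to act on COL1A1, fell from 279.9 ± 35.2 to 48.8 ± 14.9 CPM (-2.52, adjusted p = 2.99e-16). Of 11 processing and crosslinking genes LOXL1 (-2.49), PCOLCE (-1.30) and LOXL4 (-1.24) fell and 0 rose. Of 11 fiber partners 7 fell, among them LUM (-3.14), SPARC (-2.10), THBS2 (-2.07) and DCN (-1.58). Of 7 receptors the kinase DDR2 (-1.35), the uptake receptor MRC2 (-1.38) and the integrin subunit ITGB1 (-0.77) fell.

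The 8 genes of collagen degradation moved in both directions. MMP1, the interstitial collagenase, rose from 12.4 ± 7.81 to 213.6 ± 48.4 CPM (4.10, adjusted p = 7.96e-18), while FAP (-2.06), TIMP3 (-1.49) and TIMP2 (-1.19) were among 6 that fell. In the 15 genes of TGF-beta signalling, 3 rose, among them the secreted CCN2 (3.42) and the ligand TGFB1 (1.11), and 4 fell, among them the co-receptor TGFBR3 (-2.77) and the signal transducer SMAD3 (-1.44). At 1.11 µM 34 of the 81 genes rose and 3 fell, where 9.77% of all genes rose and 13.2% fell. Against rows K and L alone 22 rose and 0 fell, where 2.51% of all genes rose and 4.85% fell. Between the DMSO columns 29 of 74 tested list genes were higher in column 23 and 0 lower, where 3.3% of all genes were higher and 2.81% lower, 7 of the 8 degradation genes and 6 of the 11 fiber partners among them.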

How the data were processed

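DRUG-seq libraries of 72 wells were analysed. The authors deposited raw counts per gene and well, made with kallisto and bustools on GRCh38 per the submitters' processing notes; their versions, the annotation release, the use of strand and the collapsing of molecular identifiers are not given in the sources used here. Genes of chromosome Y and XIST were left out of all totals. Positions and gene types came from GENCODE release 29. Symbols came from a separate reference of gene names, and from GENCODE release 29 where that reference had none. Total counts ran from 25635 to 10386621 per well, so precision falls with dose above 0.37 µM, and lower limits of fold changes cover counting error only. The 95% intervals come from the fit and include the spread between wells. CPM are counts per 1000000 of the total over tested genes multiplied by the TMM factor of the well. The CPM of a well therefore need not add up to 1000000 and are no shares of its counts.

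Counts of all genes were fitted with edgeR 4.0.16 in R 4.3.3 (robust quasi-likelihood F test after TMM scaling, on genes kept by filterByExpr at 10 counts), checked on simulated counts. The dose fit held all 72 wells and tested 14259 genes. The DMSO column fit held 32 wells and the plate-side fit 24 wells with dose as a term. P-values were adjusted by Benjamini-Hochberg over all genes of a comparison, with a threshold of 0.05. Alternatives changed scaling, test (DESeq2 1.42.0), filter, DMSO reference, plate terms, wells in the fit, the replicate block and single wells.

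The collagen genes, the lists and the tests were chosen with earlier results of these data known. Genes were named by a written rule: COL1A1, COL1A2, COL3A1, COL4A1, COL4A2, COL5A1, COL5A2, COL6A1, COL6A2, COL6A3 and COL12A1 always, further collagen genes where called up to 1.11 µM, between DMSO columns or between sides, and of the other lists those called at the lowest dose with a call and up to 4 with the largest change at 0.37 µM at a mean of at least 10 CPM. Others named were chosen after their values were seen.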

Additional observations from a re-analysis of the deposited data

Results flagged for a closer look

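In 150 groups of 4 wells the highest and the lowest well were compared with the other wells by Dixon's ratio, which flags about 1 in 20 groups by chance; 6 groups were flagged. COL13A1 had 18.6 CPM in replicate 1 at 0.005 µM, where the other wells had 35.9 to 38.2, and 13.6 CPM in replicate 4 at 0.12 µM, where the others had 33.0 to 34.2. COL1A2 had 5165 CPM in replicate 3 at 0.014 µM, above 3552 to 3821 in the other wells. COL4A1 had 6.98 CPM in replicate 3 at 0.04 µM, above 3.24 to 3.46. At 3.33 µM COL6A1 had 4124 CPM in replicate 1, above 2438 to 2585, and COL6A3 had 269.7 CPM in replicate 3, below 479 to 516.

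The effect of 1.11 µM differed between plate sides, by the interaction term of the edgeR quasi-likelihood fit, for 2 collagen genes (3.09% of all genes in that direction). With no filter on low counts these 2 genes lost the call. The log2 change in the right side minus that in the left was -1.98 for COL16A1 (adjusted p = 0.0487) and -1.40 for COL3A1 (adjusted p = 0.0385).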

How the results depend on the processing

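The fall of collagen genes at 0.37 µM kept its call count within 1.5 times of 14 under all alternatives run, and leaving out each replicate number gave 13 to 14. Of the values of single named genes over all comparisons, 552 kept direction and call, 89 kept direction and lost the call, 8 kept direction and gained it, and 4 turned. The cause of the changes below was not tested.

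With DMSO column 2 as reference the count of called collagen genes went from 0 to 1 at 0.014 and at 0.04 µM and from 6 to 11 at 3.33 µM. With column 23 it went from 0 to 7 at 0.12 µM and from 12 to 6 at 1.11 µM. At 0.12 µM the count was 1 with the DESeq2 Wald test, with plate side and with plate column as covariate, and 2 both without the 3.33 and 10 µM wells and with the dose fitted with DMSO alone. DESeq2 size factors gave 4 in place of 7 at 10 µM, 6 in place of 12 between 0.37 and 0.12 µM, and 1 in place of 2 for the difference between sides at 1.11 µM, which had 0 with no filter on low counts. Between plate sides the count of 2 became 5 with no filter, 1 with wells up to 0.04 µM alone and 4 with a plate row term.

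Replicate numbers did not pair the wells: deviations of same-numbered wells correlated at -0.127 to 0.128, 9 of 40 treated wells correlated best with their own number, and at 0 doses did all pairs exceed 0.1. With the replicate block, which keeps 44 wells, the counts were 3 at 1.11 µM, 4 at 10 µM, 7 between 0.37 and 0.12 µM and 4 in place of 7 between 3.33 and 1.11 µM.

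For the 81 list genes the 2 calls at 0.04 µM became 1 with column 2, 0 with rows K and L, 4 with DMSO alone and 1 with the block. The 6 at 0.12 µM became 15 with DESeq2, 3 with column 2, 13 with column 23, 0 with rows K and L, 12 without the 3.33 and 10 µM wells, 19 with DMSO alone and 0 with the block. The 37 at 0.37 µM became 21 with rows K and L and 22 with the block, and the 37 at 1.11 µM became 22 and 15.

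Leaving out each replicate number gave 0 at each dose up to 0.04 µM, 0 to 1 at 0.12 µM, 9 to 11 at 1.11 µM, 5 to 7 at 3.33 µM and 4 to 8 at 10 µM. It gave 0 between 0.12 and 0.04 µM, 6 to 10 between 0.37 and 0.12 µM, 13 to 14 between 1.11 and 0.37 µM, and 4 to 7 between 3.33 and 1.11 µM. For list genes it gave 1 to 2, 3 to 10, 34 to 40 and 32 to 37 at 0.04, 0.12, 0.37 and 1.11 µM.

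The log2 change of COL1A1 at 10 µM was 0.0057 with DESeq2 size factors and 0.0027 with the DESeq2 Wald test. Leaving out each replicate number moved COL18A1 at 3.33 µM from -8.60 to 2.01, the lower value without replicate 4, and COL27A1 at 10 µM from -8.27 to 4.44, the lower value without replicate 3; each had counts in 1 well of its dose. Depth limits what can be read at 3.33 and 10 µM.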
